A study of Mus musculus with 23 samples.

Results

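Calprotectin and the granule proteins of neutrophils were followed in the lungs of mice with cystic fibrosis (CF) through 10 genes: S100a8, S100a9, Mpo, Elane, Camp, Ngp, Ltf, Lcn2, Mmp8 and Mmp9. They were chosen by name, and each was measured by the probe sets that the platform annotation gives to that gene symbol alone. All 10 genes were found, with 11 probe sets, among 18193 genes with such a probe set and 45037 probe sets tested. Mmp9 had 2 probe sets, and the brighter is used unless the other is named. No filter on low values was applied, so every gene entered every test.

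The arrays measured RNA of the whole right lung, labelled with biotin, in 23 samples. Groups were formed from genotype and strain: CF mice (CF-/-) and their controls (CF+/+) of BALB/c, called BALB here, and CF mice and controls of C57BL/6, called B6. Both sexes were used, with 3 arrays for every combination of strain, sex and genotype except male B6 CF mice, with 2. The labels name strain differences in CF as the subject. The sources used here do not give age, the targeted allele, diet or any treatment. No label states that the arrays of one group stem from different animals, so the p-values reflect the spread among these samples alone, and that spread may be technical. In whole lung, fewer neutrophils and less RNA per neutrophil cannot be told apart.

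Neutrophils fill their granules in the bone marrow in a fixed order. The azurophil granules come first, at the promyelocyte stage, and carry myeloperoxidase and serine proteases. Specific granules, with antimicrobial proteins and a collagenase, and then gelatinase granules follow in later stages, while the S100a8 and S100a9 proteins accumulate in the cytosol as the calprotectin heterodimer, which binds zinc, manganese and calcium. The transcripts of granule proteins are mostly lost when the cell matures, whereas calprotectin transcripts remain abundant in blood neutrophils. In the airways of people with CF, neutrophils and their proteases are a leading feature of disease.

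S100a8 and S100a9 were neighbours on chromosome 3, with 0 protein-coding genes between them. Camp, Ngp and Ltf lay on chromosome 9, with 8 protein-coding genes between Camp and Ngp and 20 between Ngp and Ltf. Promoters of 9 of the 10 genes were given by RefSeq for GRCm38.p6, from 250 bases before to 50 after the annotated start. They were searched on both strands for short motifs of factors known in myeloid cells. The motif of the C/EBP family (TTNNGNAA) was present in 6 of 9, against 40.7% of 32851 mouse promoters. That of PU.1, the product of Spi1 (GAGGAA), was also present in 6 of 9, against 28.3%. The TATA box motif (TATAAA) was in 3 of 9, against 13.6%, and the NF-kappaB motif (GGG, any 2 bases, then TTTCC) in 0 of 9, against 1.63%. A match is a description of the letters and not a binding site. The following 6 promoters are printed 5′ to 3′ on the gene's strand, because these pairs of genes carry the contrasts in expression described next: the calprotectin pair, the late pair Ngp and Camp, and the early pair Mpo and Elane. Capitals mark motif matches on either strand.
S100a8, chr3:90668821-90669120, + strand: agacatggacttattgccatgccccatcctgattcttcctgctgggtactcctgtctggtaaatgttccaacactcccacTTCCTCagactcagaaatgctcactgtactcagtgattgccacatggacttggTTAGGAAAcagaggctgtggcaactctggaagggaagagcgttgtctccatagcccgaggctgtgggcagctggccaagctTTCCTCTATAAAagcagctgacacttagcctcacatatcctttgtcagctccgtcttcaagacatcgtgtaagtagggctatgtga
S100a9, chr3:90695672-90695971, - strand: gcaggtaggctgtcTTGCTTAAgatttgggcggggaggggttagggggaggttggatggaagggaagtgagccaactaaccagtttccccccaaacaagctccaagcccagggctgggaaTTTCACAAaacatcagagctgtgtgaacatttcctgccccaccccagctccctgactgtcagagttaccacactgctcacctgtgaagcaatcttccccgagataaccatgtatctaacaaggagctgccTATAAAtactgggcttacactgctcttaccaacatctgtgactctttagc
Ngp, chr9:110419558-110419857, + strand: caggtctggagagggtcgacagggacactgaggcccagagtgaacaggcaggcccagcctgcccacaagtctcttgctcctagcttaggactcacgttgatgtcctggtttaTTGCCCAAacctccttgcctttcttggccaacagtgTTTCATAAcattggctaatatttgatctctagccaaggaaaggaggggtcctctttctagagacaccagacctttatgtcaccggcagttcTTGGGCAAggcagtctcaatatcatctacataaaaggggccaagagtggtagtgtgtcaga
Camp, chr9:109849407-109849706, - strand: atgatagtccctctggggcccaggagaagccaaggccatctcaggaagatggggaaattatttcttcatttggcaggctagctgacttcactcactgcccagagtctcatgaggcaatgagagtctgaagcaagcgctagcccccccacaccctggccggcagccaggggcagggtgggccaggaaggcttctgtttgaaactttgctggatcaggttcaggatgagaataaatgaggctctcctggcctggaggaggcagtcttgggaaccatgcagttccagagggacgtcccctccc
Mpo, chr11:87793534-87793833, + strand: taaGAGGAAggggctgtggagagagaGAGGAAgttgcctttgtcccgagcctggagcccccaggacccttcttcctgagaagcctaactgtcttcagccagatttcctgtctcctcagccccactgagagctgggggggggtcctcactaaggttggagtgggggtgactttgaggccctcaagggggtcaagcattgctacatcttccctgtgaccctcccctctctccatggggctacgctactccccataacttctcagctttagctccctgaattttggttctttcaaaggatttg
Elane, chr10:79886062-79886361, + strand: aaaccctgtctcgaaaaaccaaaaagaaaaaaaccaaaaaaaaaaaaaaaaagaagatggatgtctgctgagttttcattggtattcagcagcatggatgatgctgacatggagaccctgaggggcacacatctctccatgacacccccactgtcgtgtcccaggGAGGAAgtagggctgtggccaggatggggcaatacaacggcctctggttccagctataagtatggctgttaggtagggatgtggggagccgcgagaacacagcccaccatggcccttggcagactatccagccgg
S100a8 had a C/EBP match whose first base was at -117 from the start, PU.1 matches at -170 and -36 and a TATA match at -30. S100a9 had C/EBP matches at -236 and -130, on the minus strand of the promoter, and a TATA match at 1. Ngp had 3 C/EBP matches, at -138, -102 and -11, and Camp had no match to any of the 4 motifs. Both early genes had PU.1 matches only, at -247 and -224 in Mpo and at -85 in Elane.

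Some arrays stood apart in genes that do not belong to alveolar lung. A score of squamous epithelium genes, for which each gene was centred on its own median and the genes were then averaged, was 1.28 or more on 5 arrays and 0.24 or less on the other 18. The 5 were all 3 BALB female CF arrays (2.08, 2.55 and 3.996), B6 female control 1 (1.28) and B6 male control 3 (3.95). The same 5 arrays were high in skeletal muscle genes. Squamous epithelium is itself known to express S100a8, S100a9, Lcn2 and Slpi. Gut genes were high, with scores of 0.34 to 1.65, on all 6 BALB control arrays, on B6 female control 1 and on BALB female CF 1. Lung tissue markers had scores between -0.17 and 0.11 in all groups. Results are therefore also given without the 5 arrays, and with the squamous, gut and muscle scores as covariates where this ends a call. Because gut genes went with genotype in BALB, the covariates take up much of that comparison: 22 probe sets passed there with covariates, against 2217 without them.

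Calprotectin transcripts were higher in CF lungs of both strains. The effect was about 3.4-fold in BALB and about 2-fold in B6. S100a8 encodes the smaller subunit of calprotectin. In BALB females its log2 signal was 10.16, 9.52 and 11.03 on CF arrays, against 8.03, 7.91 and 7.97 on control arrays. In BALB males it was 9.80, 9.64 and 9.82 on CF arrays and 8.003, 8.19 and 9.33 on control arrays. Every BALB CF array lay above every BALB control array, and the closest control was male 3. The difference of CF minus control, averaged over both sexes, was 1.76 (log2 signal, SE 0.25, n = 6 and 6, 3.38-fold, limma adjusted p = 0.000279).

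In B6 the calprotectin values of CF and control lungs overlapped, since male controls were as high as CF females. S100a8 read 10.08, 10.21 and 10.34 on B6 female CF arrays, against 7.82, 9.29 and 9.27 in female controls. Males read 11.10 and 10.71 with CF, against 10.40, 10.38 and 10.28 in controls. Within each sex, every CF array lay above every control array. S100a8 rose by 0.99 in B6 CF lungs (SE 0.26, n = 5 and 6, 1.98-fold, limma adjusted p = 0.0333). That call was lost without male CF 1 or 2, female CF 2 or 3, female control 1, or male control 1, 2 or 3 of B6, each left out alone, with adjusted p up to 0.171. Over all arrays left out in turn the difference ranged over 0.74 to 1.11. With the covariates its difference was 0.83 (adjusted p = 0.0621), and without the 5 arrays 0.72 (adjusted p = 0.0317).

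S100a9 encodes the larger subunit and behaved alike. In BALB, CF arrays read from 10.28 to 11.41 with a median of 10.41, against 8.39 to 9.97 with a median of 8.62 in controls. In B6, CF arrays read from 10.14 to 11.17 with a median of 10.59, and controls from 8.002 to 10.52 with a median of 9.89. The BALB ranges were apart and the B6 ranges overlapped. S100a9 rose by 1.77 in BALB (SE 0.24, 3.41-fold, limma adjusted p = 0.000158) and by 1.06 in B6 (SE 0.25, 2.08-fold, limma adjusted p = 0.016). The B6 call of S100a9 was lost without B6 male CF 1 (1.02, adjusted p = 0.0874). In an exact permutation of the CF labels within each sex, S100a8 and S100a9 had a two-sided p of 0.005 in both strains, the smallest that 400 arrangements in BALB or 200 in B6 can give. With the covariates the BALB differences were 1.34 for S100a8 and 1.27 for S100a9 and did not pass (adjusted p = 0.297 and 0.223). Without the 5 arrays, when only males remain for BALB, they were 1.25 and 1.30 and passed (adjusted p = 0.00528 and 0.00734). These are the differences of the BALB males alone. In the fit of all 23 arrays the same differences had limma adjusted p of 0.0736 and 0.047. The call of S100a8 in males thus depended on which other arrays entered the fit.

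**Figure D1:**
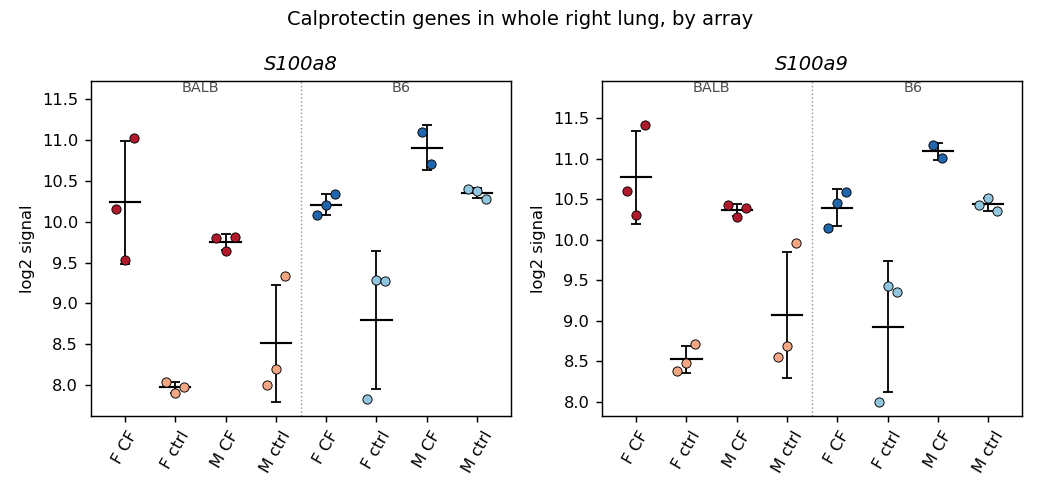
Log2 signal of S100a8 and S100a9 (vertical axes) on each of the 23 arrays, by strain, sex (F, M) and genotype (CF, ctrl). Points are arrays, and horizontal lines with bars are group means ± SD (n = 3, or 2 for B6 male CF). All BALB CF arrays lie above all BALB control arrays, whereas B6 male controls lie at 10.28 to 10.40 for S100a8, among the B6 female CF arrays at 10.08 to 10.34.

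The genes of early, azurophil granules did not pass in either strain. Mpo encodes myeloperoxidase, which makes hypochlorous acid. Its log2 signal was 3.75 to 4.38 (median 3.92) on BALB CF arrays, against 3.65 to 4.09 (median 3.87) on BALB controls. B6 CF arrays read 3.90 to 4.33 (median 4.21), against 3.68 to 4.88 (median 3.95) in B6 controls. All of these ranges overlapped, and the 2 highest readings came from B6 male controls 1 and 3, at 4.71 and 4.88. The CF difference was 0.15 in BALB (SE 0.11, limma adjusted p = 0.542) and 0.03 in B6 (SE 0.12, limma adjusted p = 0.951).

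Elane encodes neutrophil elastase, the serine protease for which CF sputum is assayed. It ranged over 4.24 to 4.78 (median 4.30) on BALB CF arrays and 3.98 to 4.43 (median 4.32) on BALB controls, and over 4.28 to 4.70 (median 4.33) on B6 CF arrays and 4.21 to 4.83 (median 4.35) on B6 controls. The groups overlapped in both strains. Its CF difference was 0.16 in BALB (SE 0.10, limma adjusted p = 0.438) and 0.01 in B6 (SE 0.11, limma adjusted p = 0.969). Mean signals of Mpo (4.03) and Elane (4.38) over all arrays lay under the median of all probe sets, 4.59. Whether they were above background was not analysed here, and at such signals a change in RNA can give a smaller change in log2 signal.

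Camp and Ngp, 2 late genes of the specific granule, moved together, and in B6 their CF and control arrays were apart in females alone. Camp encodes the cathelicidin antimicrobial peptide. In BALB females it read 5.36, 4.97 and 6.65 with CF, against 4.07, 4.44 and 4.15 in controls, and in BALB males 4.79, 5.12 and 4.85 with CF, against 4.08, 4.08 and 4.25. Every BALB CF array was above every BALB control array, with BALB female CF 3 the highest. The difference of 1.11 (SE 0.34, 2.16-fold) nevertheless missed the threshold (limma adjusted p = 0.0661), while the exact permutation p was 0.005. In B6 females Camp read 6.52, 6.75 and 6.53 with CF, against 4.22, 4.65 and 4.04 in controls. In B6 males it read 7.67 and 5.02 with CF, against 7.89, 6.27 and 7.87 in controls. The female groups were far apart and the male groups overlapped, with B6 male CF 2 lowest of the 5 males. Over both sexes the B6 difference was 0.65 (SE 0.36, limma adjusted p = 0.386), and it turned on the male CF arrays: it was 1.31 without B6 male CF 2 (adjusted p = 0.0198) and -0.02 without B6 male CF 1 (adjusted p = 0.99).

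Ngp, neutrophilic granule protein, is a cystatin-related protein of the same granules in mice. On BALB arrays it read 5.89, 5.42 and 8.05 in CF females, against 4.57, 4.54 and 4.01 in female controls. BALB males read 5.003, 5.92 and 5.64 with CF, against 4.14, 4.05 and 4.996 in controls. The strain's CF and control arrays did not overlap, though the lowest CF male and the highest control male were nearly equal. Ngp rose by 1.60 in BALB (SE 0.40, 3.04-fold, limma adjusted p = 0.0234). This call was lost without BALB female CF 3, male CF 2, male CF 3, female control 3, male control 1 or male control 2 (adjusted p up to 0.0614), when the 5 arrays were left out (1.13, adjusted p = 0.252) and with the covariates (0.98, adjusted p = 0.793). In B6, Ngp read 7.61, 7.77 and 7.68 in CF females, against 4.20, 5.24 and 4.56 in female controls. B6 males read 8.46 and 6.09 with CF, against 8.72, 7.20 and 8.67 in controls. Again only the female groups were apart. The B6 difference over both sexes, 1.05 (SE 0.43), did not pass (limma adjusted p = 0.187), and it was 1.64 without B6 male CF 2 (adjusted p = 0.0343) and 0.46 without B6 male CF 1 (adjusted p = 0.731).

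Ltf encodes lactoferrin, an iron-binding protein that airway glands also secrete. On BALB arrays it ranged over 8.14 to 8.90 (median 8.74) with CF and 7.78 to 9.50 (median 8.99) in controls. On B6 arrays it ranged over 8.28 to 8.87 (median 8.46) with CF and 7.60 to 8.43 (median 8.22) in controls. Both pairs of ranges overlapped, and the CF difference was -0.22 in BALB (SE 0.19, limma adjusted p = 0.615) and 0.38 in B6 (SE 0.20, limma adjusted p = 0.358).

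Lcn2 encodes lipocalin 2, which binds bacterial siderophores and is also made by inflamed epithelium. It read 9.78, 9.45 and 11.29 in B6 CF females, against 9.44, 9.06 and 8.93 in female controls. B6 males read 9.50 and 9.72 with CF, against 9.06, 8.93 and 8.76 in controls. Lcn2 was the 1 gene of the 10 whose B6 CF arrays all lay above the B6 controls, narrowly so at 9.45 against 9.44, and B6 female CF 3 was far above the rest. It rose by 0.86 in B6 (SE 0.25, 1.82-fold, limma adjusted p = 0.046), and the difference was 0.58 without B6 female CF 3 (adjusted p = 0.0774). The call was lost when any 1 of 12 arrays was left out (adjusted p up to 0.124): that one, both male CF arrays, female controls 2 and 3 and all male controls of B6, and 4 BALB arrays (female CF 2, male CF 3, female control 1 and male control 1). It did not pass without the 5 arrays (0.90, adjusted p = 0.0765) or with the covariates (0.86, adjusted p = 0.115). In BALB the CF arrays read 8.33 to 9.49 (median 8.97), against 8.06 to 8.85 (median 8.49) in controls. These ranges overlapped, and the difference of 0.45 (SE 0.23) did not pass (limma adjusted p = 0.319).

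Mmp8, the neutrophil collagenase, rose in both strains by a small amount. Its BALB CF arrays read 4.12 to 4.82 (median 4.32), against 3.76 to 4.33 (median 3.93) in controls. B6 CF arrays read 4.56 to 5.26 (median 4.93), against 3.995 to 4.86 (median 4.50) in controls. The ranges overlapped in both strains, and most of these values were near the median of all probe sets. Mmp8 rose by 0.40 in BALB (SE 0.11, 1.32-fold, limma adjusted p = 0.0328) and by 0.50 in B6 (SE 0.11, 1.41-fold, limma adjusted p = 0.0129). The BALB call was lost without BALB female CF 3, male CF 2, male CF 3, female control 1, male control 1 or male control 2 (adjusted p up to 0.0943), without the 5 arrays (0.18, adjusted p = 0.613) and with the covariates (0.28, adjusted p = 0.78). The B6 call was lost without B6 male CF 1 (0.40, adjusted p = 0.124).

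Mmp9 encodes gelatinase B, the marker of the gelatinase granules, which macrophages and other cells also express. Its brighter probe set read 5.45 to 6.28 (median 5.75) on BALB CF arrays, against 5.02 to 5.71 (median 5.37) on BALB controls. On B6 arrays it read 5.71 to 6.55 (median 6.08) with CF, against 5.07 to 6.30 (median 5.84) in controls. The ranges overlapped, and the differences of 0.43 in BALB (SE 0.13, limma adjusted p = 0.0506) and 0.37 in B6 (SE 0.13, limma adjusted p = 0.133) did not pass. The dimmer probe set of Mmp9 passed in both strains, at 0.65 in BALB (SE 0.16, 1.57-fold, limma adjusted p = 0.0216) and 0.64 in B6 (SE 0.17, 1.56-fold, limma adjusted p = 0.0332). The probe sets thus gave the same direction and different calls. The dimmer one averaged 5.78 with CF and 4.80 in controls in BALB females, whose CF arrays were all high in squamous genes. In BALB males it averaged 5.26 and 4.95, in B6 females 5.73 and 5.12, and in B6 males 6.30 and 5.63. Its calls were not followed with arrays left out or with the covariates.

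**Figure D2:**
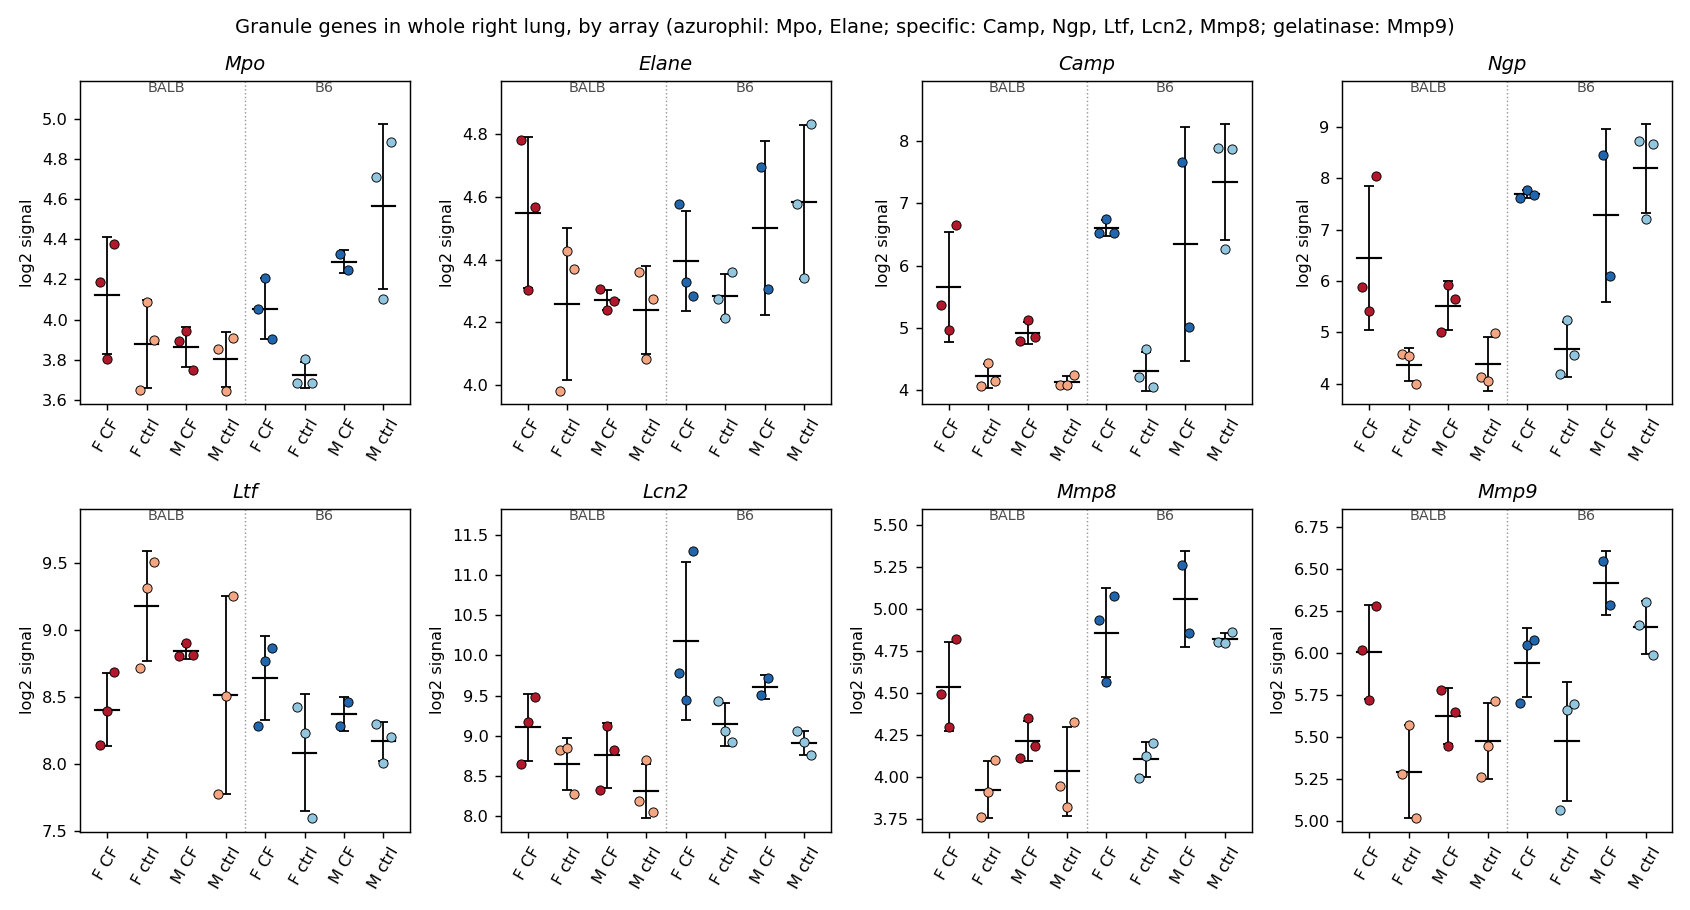
Log2 signal (vertical axes, a range of its own for each gene) of the 8 granule genes on each array, by strain, sex (F, M) and genotype (CF, ctrl). Points are arrays, and lines with bars are group means ± SD (n = 3, or 2 for B6 male CF). Camp and Ngp are high in B6 male controls, at means of 7.34 and 8.20, and low in B6 female controls, at 4.31 and 4.67.

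Across the 10 genes, 4 rose and 0 fell in CF lungs of each strain. In BALB these were S100a8, S100a9, Ngp and Mmp8, where 2.6% of all 45037 probe sets were called higher and 2.33% lower. In B6 they were S100a8, S100a9, Lcn2 and Mmp8, where 2.72% of all probe sets were called higher and 1.99% lower. Both calprotectin genes, 0 of 2 early granule genes and 2 of 6 late granule genes passed in each strain. The median difference of the 10 genes was 0.44 in BALB and 0.57 in B6, and that of all genes was -0.01 and 0.01. For the late genes the medians were also 0.44 and 0.57, and for the early genes 0.16 and 0.02. Whether early and late genes differ in their response was not tested. In BALB, 4 of the 10 genes (S100a8, S100a9, Camp and Ngp) had every CF array above every control array, as did 1.05% of all probe sets. In B6 this held for 1 gene, Lcn2, and for 1.3% of all probe sets.

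The counts of calls rested on single arrays. In BALB, 2 of the 10 genes passed without male control 1, male control 2, female CF 3, male CF 2 or male CF 3, and with the covariates 0 passed. In B6, 0 passed without male CF 1, and 2 passed without male control 1, 2 or 3 or without female CF 3. With the covariates 2 passed in B6. S100a8 and S100a9 passed in BALB whichever array was left out, with adjusted p up to 0.00143 and 0.000836.

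**Figure D3:**
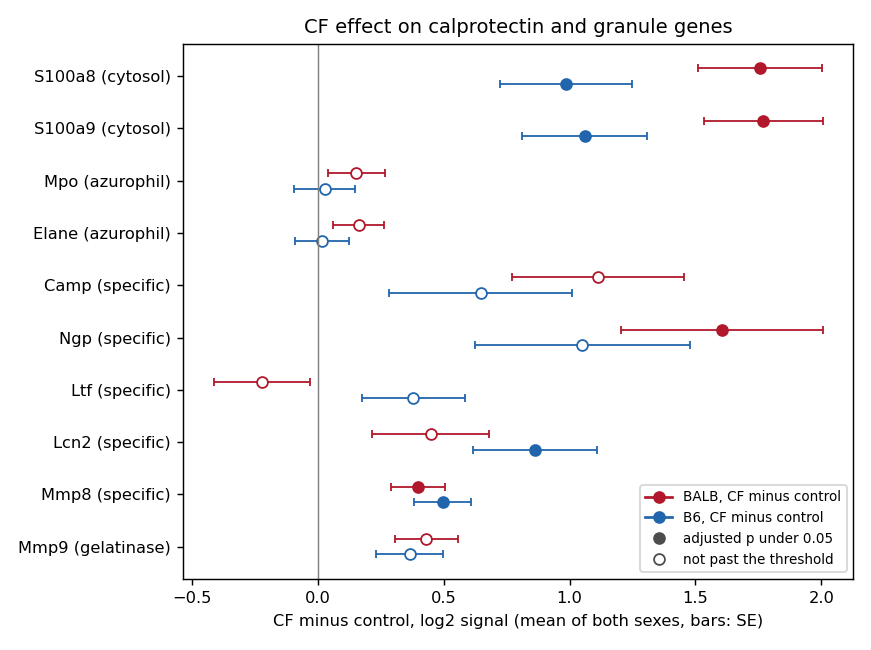
CF minus control difference in log2 signal (horizontal axis, mean of both sexes, bars are SE) for each gene, in BALB (red) and B6 (blue). Filled points passed a limma adjusted p of 0.05. S100a8 and S100a9 have differences of 1.76 and 1.77 in BALB, and the early genes Mpo and Elane have 0.15 and 0.16 in BALB and 0.03 and 0.01 in B6.

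The size of the CF effect was not shown to differ between strains for any of the 10 genes by limma (0 of 10, with 2 at an unadjusted p under 0.05, against 2.54% of all probe sets). The BALB effect minus the B6 effect was 0.77 for S100a8 (SE 0.36, limma adjusted p = 0.304), 0.71 for S100a9 (SE 0.34, adjusted p = 0.321) and -0.60 for Ltf (SE 0.28, adjusted p = 0.302). For the other 7 genes it lay between -0.42 and 0.55. None was told apart from the spread between arrays by this test.

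Levels, by contrast, differed between strains. Among CF lungs, 4 of the 10 genes were lower in BALB than in B6, all of them late granule genes, against 9.52% of all probe sets called lower and 8.66% called higher. Camp averaged 5.29 ± 0.70 in BALB CF lungs and 6.50 ± 0.95 in B6 CF lungs (SD, n = 6 and 5). The sex-balanced difference of Camp was -1.18 (SE 0.36, 2.27-fold lower, limma adjusted p = 0.0257). Ngp averaged 5.99 ± 1.07 in BALB CF lungs and 7.52 ± 0.87 in B6 CF lungs, a difference of -1.50 (SE 0.43, 2.82-fold lower, limma adjusted p = 0.0162). Lcn2 had a difference of -0.96 (SE 0.25, limma adjusted p = 0.00753), and Mmp8 had -0.58 (SE 0.11, limma adjusted p = 0.000682). Without B6 male CF 1, 2 of the genes passed, and Camp (-0.52, adjusted p = 0.324) and Ngp (-0.90, adjusted p = 0.197) did not. Camp also missed the threshold without B6 female CF 2, BALB female CF 1 or BALB female CF 2 (adjusted p up to 0.0701). When the 5 arrays were left out, so that only males can be compared, S100a8 (-1.15, adjusted p = 0.00449) and Mmp9 (-0.79, adjusted p = 0.00299) passed as well as Ngp (-1.75, adjusted p = 0.034) and Mmp8 (-0.84), and Camp (-1.42, adjusted p = 0.0835) and Lcn2 (-0.85, adjusted p = 0.164) did not. S100a9 differed by only -0.17 between CF lungs of the strains (SE 0.25, limma adjusted p = 0.708), and S100a8 by -0.56 (SE 0.26, limma adjusted p = 0.157).

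Among control lungs 6 of the 10 genes were lower in BALB than in B6, and 8.12% of all probe sets were called lower and 7.46% higher. S100a8 averaged 8.24 ± 0.54 in BALB controls and 9.57 ± 1.01 in B6 controls (SD, n = 6 each). Its difference was -1.33 (SE 0.25, 2.52-fold lower, limma adjusted p = 0.000484), and that of S100a9 was -0.88 (SE 0.24, limma adjusted p = 0.0115). Ngp averaged 4.38 ± 0.39 in BALB controls and 6.43 ± 2.04 in B6 controls, and its difference was -2.05 (SE 0.40, 4.14-fold lower, limma adjusted p = 0.000837). Camp (-1.65, adjusted p = 0.00146), Mmp8 (-0.48, adjusted p = 0.00241) and Mmp9 (-0.43, adjusted p = 0.0215) were lower as well, and Mmp9 missed the threshold without B6 female control 2, female control 3 or male control 2 or BALB female control 3 or male control 1 (adjusted p up to 0.0704). Ltf alone was higher in BALB controls, by 0.72 (SE 0.19, 1.64-fold, limma adjusted p = 0.0121). With the squamous, gut and muscle scores as covariates 0 of these 7 passed, and all BALB controls were high in gut genes. The part of those tissue genes in the strain difference was not tested.

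B6 controls were split by sex, a comparison chosen after the values were seen. Female B6 controls were lower than male B6 controls in 7 of the 10 genes, where 1.01% of all probe sets were called lower. Ngp averaged 4.67 ± 0.53 in female controls and 8.20 ± 0.86 in male controls (SD, n = 3 each). The difference of Ngp, female minus male, was -3.53 (SE 0.57, 11.5-fold lower, limma adjusted p = 0.00155). Camp differed by -3.04 (SE 0.48, 8.22-fold lower, limma adjusted p = 0.00142), S100a8 by -1.56 (adjusted p = 0.0177) and S100a9 by -1.51 (adjusted p = 0.0158). Mmp8 differed by -0.71 (adjusted p = 0.0117), Mmp9 by -0.68 (adjusted p = 0.0431), and the early gene Mpo by -0.84 (SE 0.16, 1.79-fold lower, limma adjusted p = 0.00621). Elane, at -0.30 (adjusted p = 0.322), Ltf and Lcn2 did not pass. Of the marker scores, those of platelet and erythroid genes were read for these controls after the values were seen. The others are not given here. The score of platelet genes parted the sexes of these controls and that of erythroid genes did not. The platelet gene score was -0.28, 0.53 and 0.06 on female controls and 1.04, 0.81 and 0.84 on male controls of B6, and 1.26 and -0.03 on B6 male CF 1 and 2, the arrays with high and low Camp and Ngp. Of 7 platelet genes 0 passed for CF in either strain by limma, and erythroid scores of B6 controls were -0.14, -0.93 and -0.25 in females and 0.17, -0.24 and 0.01 in males. The part of blood cells of these kinds was not tested. Of 17 mature neutrophil genes outside the 10, 3 were lower in female than in male B6 controls. Mpo, Camp and Ngp passed whichever array was left out. S100a8 missed the threshold without B6 female control 1 (-1.07, adjusted p = 0.0687) or any 1 of the male controls, S100a9 without female control 1 (-1.04, adjusted p = 0.0597), male control 1 or male control 2, Mmp8 without female control 2 or male control 3, and Mmp9 without any 1 of 9 arrays (adjusted p up to 0.169), all 6 of the B6 controls among them. When the 5 arrays were left out, S100a8, Mpo, Camp and Ngp still passed at -1.11, -0.66, -2.73 and -3.06, and S100a9, Mmp8 and Mmp9 did not.

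No such sex difference passed in BALB controls (0 of 10 genes by limma, with 1 at an unadjusted p under 0.05, against 0.14% of all probe sets in either direction). There Ngp averaged 4.37 ± 0.32 in females and 4.39 ± 0.52 in males, and Camp 4.22 ± 0.19 and 4.14 ± 0.10 (SD, n = 3 each). The sex difference of the strain difference itself did not pass for any of the 10 genes by limma (4 had an unadjusted p under 0.05, and 0.0111% of all probe sets passed), although it was 3.12 for Camp (SE 0.68, limma adjusted p = 0.152) and 3.51 for Ngp (SE 0.80, limma adjusted p = 0.197). Between male controls, 7 of the 10 genes were lower in BALB than in B6 (5.21% of all probe sets were called lower), with Ngp at -3.80 (SE 0.57, limma adjusted p = 7.83e-05) and Mpo at -0.76 (SE 0.16, limma adjusted p = 0.003). Of these, S100a9 missed the threshold without BALB male control 1 or 2 (adjusted p up to 0.0652), and Mmp9 without those arrays or B6 male control 1 or 2 (adjusted p up to 0.0879). Between female controls, 0 of the 10 genes were lower in BALB by limma (4.93% of all probe sets were, and 2 of the genes differed at an unadjusted p under 0.05), and Ltf was higher, by 1.09 (SE 0.27, limma adjusted p = 0.0119).

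The CF effect was then taken within each sex. In BALB females 3 of the 10 genes rose (0.577% of all probe sets), S100a8 by 2.27 (SE 0.35), S100a9 by 2.24 (SE 0.33) and Mmp8 by 0.61 (SE 0.15), with limma adjusted p of 0.00472, 0.00407 and 0.049. In BALB males 1 rose (1.26% of all probe sets), S100a9 by 1.30 (SE 0.33, limma adjusted p = 0.047), and S100a8 missed the threshold at 1.25 (adjusted p = 0.0736). These males have no array high in squamous genes. All 3 BALB female CF arrays were high in them and no BALB female control was. Leaving out 1 array therefore cannot part CF from squamous content in BALB females. S100a8 and S100a9 passed in BALB females whichever array was left out, but Mmp8 missed the threshold without any 1 of 15 arrays (adjusted p up to 0.236) and S100a9 in BALB males without any 1 of 16 (adjusted p up to 0.224). In B6 females 4 genes rose (0.406% of all probe sets): Ngp by 3.02 (SE 0.57, 8.12-fold, limma adjusted p = 0.0121), Camp by 2.29 (SE 0.48, 4.91-fold, adjusted p = 0.0246), S100a9 by 1.47 (adjusted p = 0.0384) and Mmp8 by 0.75 (adjusted p = 0.018). In B6 females Ngp missed the threshold without female control 3 or female CF 3 (adjusted p up to 0.0693), Camp without female control 2 or 3 or any 1 of the female CF arrays (adjusted p up to 0.134), Mmp8 without female control 2 or 3 or female CF 1 or 3 (adjusted p up to 0.122) and S100a9 without any 1 of 9 arrays (adjusted p up to 0.17). In B6 males 0 of the 10 passed by limma, 0 also at an unadjusted p under 0.05 (3.61% of all probe sets passed), and Ngp and Camp had differences of -0.92 (SE 0.64) and -1.003 (SE 0.54). The sign of both rested on 1 array. Without B6 male CF 2 they were 0.26 for Ngp (adjusted p = 0.899) and 0.32 for Camp (adjusted p = 0.808), and without B6 male CF 1 they were -2.10 for Ngp (adjusted p = 0.149) and -2.33 for Camp (adjusted p = 0.0231), with the lone CF array assumed to vary like the other groups.

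The female effect exceeded the male effect in B6 for 2 of the 10 genes, where 0.682% of all probe sets were called in that direction. For both genes most of this lay between the controls of the sexes, the split described above. Camp averaged 6.60 in female and 6.34 in male CF lungs, against 4.31 and 7.34 in female and male controls. Ngp averaged 7.69 and 7.27 in CF lungs, against 4.67 and 8.20 in controls. The female minus male difference of the CF effect was 3.94 for Ngp (SE 0.85, limma adjusted p = 0.021) and 3.30 for Camp (SE 0.73, limma adjusted p = 0.0224). Neither passed without B6 male CF 2, male control 1, male control 3 or female CF 1, and without the first of these the values were 2.76 for Ngp (adjusted p = 0.117) and 1.97 for Camp (adjusted p = 0.119). Camp also missed the threshold without B6 female control 3 (3.17, adjusted p = 0.0533). Ngp passed without the 5 arrays (3.47, adjusted p = 0.0311) and Camp did not (2.99, adjusted p = 0.0514). In BALB 0 of the 10 genes had a sex difference of the effect by limma (2 at an unadjusted p under 0.05, and 0.0178% of all probe sets passed), with Ngp at 0.95 (SE 0.80, limma adjusted p = 0.738).

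Ordered by group mean, S100a8 and Camp placed the strain and sex groups differently. S100a8 was lowest in BALB female controls (7.97 ± 0.06), then BALB male controls (8.51 ± 0.72) and B6 female controls (8.79 ± 0.84), and these 3 groups overlapped. A gap parted them from BALB male CF mice (9.75 ± 0.10), which were below B6 female CF mice (10.21 ± 0.13). B6 female CF mice overlapped BALB female CF mice (10.24 ± 0.76) and B6 male controls (10.35 ± 0.06), and B6 male CF mice were highest (10.91 ± 0.28). The brighter probe set of Mmp9 had the same order of all 8 groups as S100a8. The dimmer one placed B6 male controls (5.63) below B6 female CF (5.73) and BALB female CF mice (5.78). For Camp the 3 lowest groups were those of S100a8, but B6 male controls were the highest (7.34 ± 0.93), above B6 female CF (6.60 ± 0.13) and B6 male CF (6.34 ± 1.88). Of the 7 pairs of neighbours in the order, 4 overlapped for S100a8, 6 for S100a9, Camp and Lcn2, and 7 for the other genes.

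Across arrays, S100a8 with S100a9 and Camp with Ngp had the highest correlations, and those of Ltf and Lcn2 were lower. Over 23 arrays and 45 pairs of genes, S100a8 and S100a9 correlated at r = 0.974 (rho = 0.941), with r = 0.992 in BALB, 0.995 in B6 and 0.967 in deviations from the 8 group means. Camp and Ngp correlated at r = 0.981 (rho = 0.952), with r = 0.917 in deviations. For both pairs the adjusted permutation p was 3.46e-05 for r and 3.75e-05 for rho, from the smallest raw p that 100000 permutations can give, 1e-05. Leaving out the 2 arrays farthest from the median of the first gene gave r = 0.969 and 0.979, and leaving out the 5 arrays high in squamous genes gave 0.977 and 0.981 (n = 18).

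The early genes correlated with calprotectin and with the late genes Camp and Ngp to different degrees. Mpo correlated with Camp at r = 0.840 (rho = 0.841, adjusted permutation p = 3.46e-05 and 5.62e-05), and r was 0.747 without the 2 farthest arrays, 0.800 without the 5 arrays, 0.775 in BALB, 0.838 in B6 and 0.658 in deviations. Mpo and S100a9 correlated at r = 0.572 (rho = 0.688, adjusted permutation p = 0.00742 and 0.000614), with r = 0.489 without the 2 farthest arrays, 0.562 without the 5 arrays and 0.272 in deviations. Mpo and S100a8 had r = 0.628 (rho = 0.747, adjusted permutation p = 0.00223 and 7.94e-05) and r = 0.312 in deviations. Elane had r = 0.681 with Camp, 0.624 with Ngp, 0.530 with S100a8 and 0.482 with S100a9, and in BALB alone 0.603, 0.490, 0.4997 and 0.495, so that its r with Ngp was no higher than with calprotectin there. The differences between these correlations were not tested. Mpo and Elane had r = 0.790 (rho = 0.744, adjusted permutation p = 9e-05 and 0.000189), r = 0.723 without the 2 farthest arrays and r = 0.704 in deviations. Pooled values also hold the differences between groups, which the deviations take out.

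S100a9 and Ngp correlated at r = 0.770 (rho = 0.790, adjusted permutation p = 9e-05 and 5.62e-05), with r = 0.751 without the 2 farthest arrays and 0.517 in deviations. Arrays with like S100a9 signals had very different Ngp signals: B6 male control 1 had 10.43 for S100a9 and 8.72 for Ngp, and BALB male CF 1 had 10.43 and 5.003. Ltf had r between -0.27 and -0.04 with the other 9 genes, and 0 of these 9 passed after adjustment (adjusted permutation p from 0.266 to 0.846 for r). Lcn2 had r of 0.113 with Mpo, 0.043 with Elane, 0.368 with S100a9 and 0.411 with Mmp9, which did not pass (adjusted permutation p = 0.653, 0.846, 0.108 and 0.0652), and 0.598 with Mmp8, its highest. In deviations Lcn2 had r between -0.40 and 0.20 with the other 9 genes. Within B6 Ltf correlated with Lcn2 at r = 0.705 (n = 11), and within BALB at -0.089 (n = 12).

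**Figure D4:**
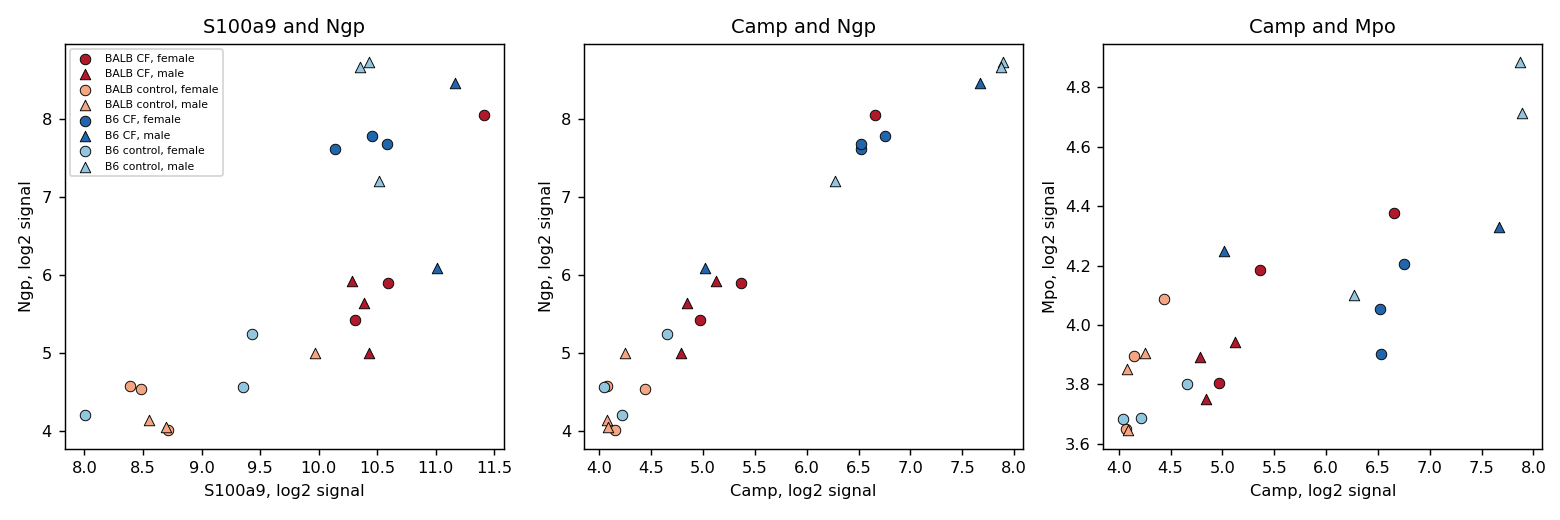
Log2 signals of pairs of genes on each of the 23 arrays: S100a9 (horizontal) with Ngp, Camp with Ngp, and Camp with Mpo. Circles are females and triangles males, red BALB and blue B6, dark CF and light control. Camp and Ngp lie near a line (r = 0.981), whereas at S100a9 signals of 10 to 11 the Ngp signals spread from 5.003 to 8.72.

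**Figure D5:**
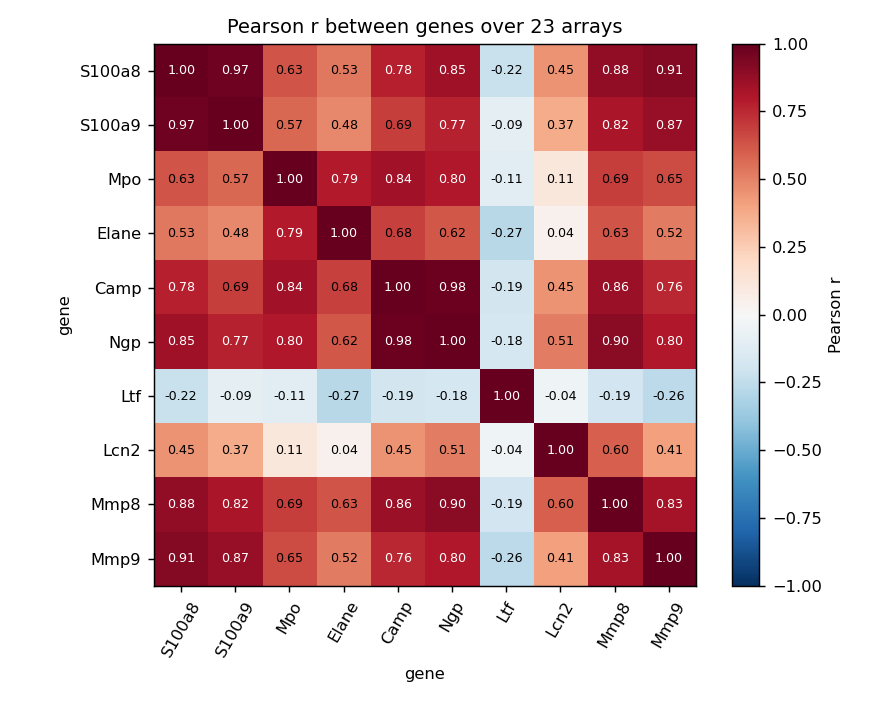
Pearson r between each pair of the 10 genes over 23 arrays, ordered by role. S100a8 with S100a9 and Camp with Ngp have the highest values, 0.974 and 0.981, and Ltf has values below 0 with every other gene.

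Among 11633 other genes of at least median signal, the 5 most like S100a9 by Pearson r over the 23 arrays were S100a8 (0.974), the G-CSF receptor gene Csf3r (0.919), the chemokine receptor gene Cxcr2 (0.913), Wfdc17 (0.897) and Mmp9 (0.868). These r lay between 0.834 and 0.977 without the 5 arrays (n = 18). In that ranking Ngp was at place 14 and Camp at 41, Lcn2 at 954 and Ltf at 6576. In deviations from the group means the 5 were S100a8 (0.967), Htra3 (0.887), Lcp1 (0.869), Cox6a1 (0.864) and Slc11a1 (0.851). For Mpo, among the same genes of at least median signal, which leave out Elane (r = 0.790), the 5 most alike were Camp (0.840), Ngp (0.804), the squamous epithelium gene Sfn (0.744), Ly6g6c (0.743) and Chrd (0.729). Without the 5 arrays the r of Sfn was 0.609 and that of Camp 0.800. In deviations those of Mpo were Utf1 (0.852), Chrd (0.814), Irgc1 (0.800), B830008H07Rik (0.781) and Ackr1 (0.778).

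Other genes of the same granules were read from lists. Outside the 10 genes, 23 of 98 measured pathway genes passed for BALB and 22 of 98 for B6. Of all probe sets 2.6% were called higher and 2.33% lower in BALB, and 2.72% higher and 1.99% lower in B6, which is the background of every list count that follows. Leaving out the 5 arrays, 10 of those 23 and 15 of those 22 passed, and with the covariates 0 and 15. With each array left out in turn, 6 of the 23 and 15 of the 22 lost their call at least once. Of 7 measured azurophil granule genes, Mpo and Elane included, 1 rose in BALB and 0 in B6 by limma, where 1 had an unadjusted p under 0.05. The gene that rose was Srgn, the proteoglycan serglycin that many blood cells express, by 0.25 (SE 0.06, limma adjusted p = 0.0149), a call lost without the 5 arrays (adjusted p = 0.0619). The proteinase 3 gene Prtn3 had differences of 0.14 in BALB (SE 0.10, adjusted p = 0.493) and 0.08 in B6 (SE 0.10, adjusted p = 0.778). Of 17 specific granule genes 4 rose in each strain, and outside the 10 genes these were Cybb (0.54, SE 0.11, adjusted p = 0.00432), which encodes a NADPH oxidase subunit shared with macrophages, and Slpi (1.28, SE 0.32, adjusted p = 0.0215) in BALB. In B6 they were Cybb (0.47, SE 0.11, adjusted p = 0.0181) and the oxidase subunit gene Cyba (0.44, SE 0.09, adjusted p = 0.0085). Cybb lost its call without the 5 arrays in BALB (0.42, adjusted p = 0.21) and in B6 (0.45, adjusted p = 0.0588), and in B6 also with the covariates (adjusted p = 0.0586) and without B6 male CF 1 or female control 3. Cyba lost it with the covariates (adjusted p = 0.0532) and without B6 male CF 1 (0.28, adjusted p = 0.107). Slpi, a protease inhibitor that epithelia secrete, ranged over 8.05 to 10.95 on B6 controls. In BALB males, without the squamous arrays, its difference was 0.49 (adjusted p = 0.145), and the BALB call was also lost without BALB female CF 3, male CF 2, female control 1 or male control 1 (adjusted p up to 0.058). Cd177 had 0.91 in BALB (adjusted p = 0.0765) and 0.92 in B6 (adjusted p = 0.0975) and did not pass.

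Of 9 gelatinase granule and secretory vesicle genes, 3 rose in BALB and 4 in B6. The integrin chains Itgam (0.76 in BALB and 0.54 in B6) and Itgb2 (0.54 and 0.55) and the metal transporter Slc11a1 (0.46 and 0.60) passed in both strains by limma. The formyl peptide receptor Fpr2 passed in B6 (0.70, SE 0.15, adjusted p = 0.00846) and had 0.39 in BALB (adjusted p = 0.125). Without the 5 arrays, Itgb2 (0.37, adjusted p = 0.253) and Slc11a1 (0.30, adjusted p = 0.342) lost their BALB calls and Itgam its B6 call (0.43, adjusted p = 0.0869). With the covariates all 3 lost their BALB calls (adjusted p from 0.443 to 0.762). Slc11a1 in BALB was lost without any 1 of 8 arrays (adjusted p up to 0.0954) and Itgam in B6 without any 1 of 5 (adjusted p up to 0.144). The B6 calls of Itgb2, Slc11a1 and Fpr2 were lost without B6 male CF 1 (adjusted p = 0.0588, 0.0718 and 0.0585). Mature neutrophil genes outside the 10 rose in 8 of 17 in BALB and 9 of 17 in B6, with medians of 0.32 and 0.61. Slfn4, a schlafen gene of myeloid cells, had the lowest p in BALB and rose by 1.67 there (SE 0.21, 3.19-fold, adjusted p = 9.58e-05) and by 1.08 in B6 (SE 0.22, 2.12-fold, adjusted p = 0.00612). Cxcr2 rose by 0.69 in BALB and 0.62 in B6, Clec4e, which encodes a receptor for mycobacterial glycolipid, by 0.73 and 0.76, and Stfa2l1, a stefin gene, by 1.03 and 1.06. These 4 passed in both strains whichever array was left out and without the 5 arrays, and with the covariates they passed in B6 but not in BALB (adjusted p from 0.0986 to 0.284). Among genes of proliferation and myeloid progenitors, 3 of 8 rose in BALB (Ccna2, Rrm2 and Mki67, by 0.34 to 0.45), calls lost without the 5 arrays (adjusted p from 0.359 to 0.525), with the covariates and without any 1 of 6 to 10 arrays. In B6, 4 of 8 rose (Rrm2, Ccna2, Top2a and Mki67, by 0.72 to 1.24) and Kit fell by 0.34 (-0.34, SE 0.09, adjusted p = 0.0409), the last lost without any 1 of 10 arrays (adjusted p up to 0.128). Monocyte genes rose in 2 of 7 in BALB and 3 of 7 in B6. Their score was -0.09 to 0.16 in BALB CF lungs, against -0.60 to -0.22 in BALB controls, and 0.06 to 0.43 in B6 CF lungs, against -0.23 to 0.11 in B6 controls. The part of these cells in the results for Mmp9, Cybb and the integrins was not tested.

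Most genes around the pathway did not pass the threshold. Of 6 genes for receptors described for calprotectin, among them Tlr4 and Ager, 0 passed in either strain by limma, and 3 had an unadjusted p under 0.05 in each. The list of other S100 genes held 12, among them S100pbp, which encodes a binding protein and is not itself a family member. Of these 12, S100a4, which encodes a motility factor of leukocytes and fibroblasts, rose in both strains. It rose by 0.69 in BALB (SE 0.12, adjusted p = 0.00173) and by 0.61 in B6 (SE 0.13, adjusted p = 0.00742). In B6 it missed the threshold without B6 male CF 1. S100a13 fell by 0.22 in BALB (-0.22, SE 0.06, adjusted p = 0.0479), a call lost without any 1 of 18 arrays (adjusted p up to 0.116). Of 14 neutrophil chemoattractant genes, the interleukin 1 beta gene Il1b rose by 0.70 in BALB (SE 0.14, adjusted p = 0.00611) and by 1.41 in B6 (SE 0.15, adjusted p = 1.92e-05). Its BALB call was lost without the 5 arrays (0.49, adjusted p = 0.166) and with the covariates (adjusted p = 0.0828). In B6 Cxcl2 also rose (0.61, SE 0.12, adjusted p = 0.00466) and Cxcl15, lungkine, fell (-0.25, SE 0.07, adjusted p = 0.0444), a call lost without any 1 of 15 arrays (adjusted p up to 0.185). Of 13 inhibitors of neutrophil proteases, Slpi rose in BALB and Serpina3n in B6 (0.49, SE 0.12, adjusted p = 0.0222), a call lost with the covariates (adjusted p = 0.0778) and without any 1 of 6 arrays (adjusted p up to 0.0712).

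Of 13 measured regulators of granulocyte formation, 5 rose and 2 fell in BALB, and 3 rose and 0 fell in B6, and the strain difference of the CF effect passed for 2, against 2.54% of all probe sets. Csf3r, Spi1, which encodes PU.1, and Irf8 rose in both strains, by 0.98, 0.45 and 0.48 in BALB and by 0.98, 0.47 and 0.50 in B6. Without the 5 arrays Spi1 did not pass in BALB (0.32, adjusted p = 0.275) or B6 (0.40, adjusted p = 0.0547), nor Irf8 in B6 (0.33, adjusted p = 0.0884). With the covariates Irf8 did not pass in B6 (0.37, adjusted p = 0.0938), and none of the 3 passed in BALB (adjusted p from 0.249 to 0.687). Without B6 male CF 1, Spi1 (adjusted p = 0.153) and Irf8 (adjusted p = 0.178) missed the threshold in B6, as did Irf8 without B6 male control 3 or female CF 3, and in BALB without BALB female control 3 or male CF 2 (adjusted p up to 0.0548). Csf2rb, the common beta chain of the GM-CSF receptor, rose by 0.56 in BALB (SE 0.10, adjusted p = 0.00257), a call lost without the 5 arrays (0.41, adjusted p = 0.157) and with the covariates (adjusted p = 0.297), and had 0.32 in B6 (adjusted p = 0.102). The genes of C/EBP beta and C/EBP delta, factors of stress-induced granulocyte formation that epithelium and macrophages also express, fell in BALB. Cebpd averaged 8.001 ± 0.48 in BALB CF lungs and 9.29 ± 0.35 in BALB controls (SD, n = 6 each), and 9.47 ± 0.23 in B6 CF lungs and 8.94 ± 0.85 in B6 controls (n = 5 and 6). Cebpd fell in BALB (-1.29, SE 0.24, limma adjusted p = 0.00276) and had 0.55 in B6 (SE 0.25, adjusted p = 0.26), and its strain difference of the effect was -1.84 (limma adjusted p = 0.00643). Cebpb fell in BALB (-0.54, SE 0.09, limma adjusted p = 0.00104) and had 0.24 in B6 (SE 0.09, adjusted p = 0.17), with a strain difference of -0.78 (limma adjusted p = 0.00244). Both fell and both strain differences passed whichever array was left out, and in males without the 5 arrays Cebpd had -1.45 (adjusted p = 0.00206) and Cebpb -0.75 (adjusted p = 0.0017) in BALB. With the covariates, gut genes among them, neither passed in BALB (-0.67, adjusted p = 0.714, and -0.28, adjusted p = 0.686), and the strain differences did not pass either (-1.40, adjusted p = 0.31, and -0.57, adjusted p = 0.278). Cebpa, the factor of early granulocyte commitment, had -0.12 in BALB (adjusted p = 0.218) and -0.03 in B6 (adjusted p = 0.876).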

How the data were processed

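RNA of the whole right lung was measured on 23 arrays, per the labels. The deposited value table held 45101 probe sets, taken to be log2 values on a scale inferred from their range (1.79 to 13.8) and the like medians of all arrays (4.56 to 4.64). How the authors summarised and normalized them, the sources used here do not give. Columns were matched to samples by title, and no 2 columns were identical (0 pairs). Control probe sets (64) were left out, leaving 45037, of which 34945 had 1 symbol in the platform annotation. A gene is represented by its brightest probe set. The number of arrays limits the precision.

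The 8 groups each had their own mean, estimated with limma 3.58.1 in R 4.3.3 (15 residual degrees of freedom), which was also tested on simulated data. The p-values were adjusted by Benjamini-Hochberg over all 45037 probe sets within each comparison, with a threshold of 0.05. Exact tests permuted CF labels within sex. Correlations used 100000 permutations in scipy 1.17.1, adjusted over 45 pairs. The genes, lists and comparisons were chosen with earlier results of these data known, so that patterns known from them are no independent support.

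All 10 genes are named. Up to 4 genes of lowest p that passed in a strain are named from each pathway list, or up to 2 where none passed, and the 5 most alike to S100a9 and Mpo. Cd177, Cebpa and the marker genes were named after their values were seen. Of the other marker lists, in BALB and in B6, 6 of 7 and 0 of 7 B cell genes rose. Of T cell genes 3 and 6 of 7 rose, and of alveolar macrophage genes 0 and 1 of 8. Without the 5 arrays, the B cell genes Blk, Cd22 and Cd79a and all T cell genes lost their BALB calls (adjusted p from 0.0563 to 0.35). With the covariates every B cell and T cell call in BALB was lost (adjusted p from 0.6 to 0.912). None passed by limma among eosinophil, mast cell and basophil, erythroid, platelet or airway secretory genes (0 of 10, 5, 7 and 10 in both strains, with 0 or 1 of each at an unadjusted p under 0.05). In BALB 3 of 11 squamous and 1 of 11 muscle genes rose, 5 of 13 gut genes fell and 1 of 10 lung genes, Foxj1, fell, and in B6 0 of these passed.

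Alternatives were quantile normalization, median centring, a filter on dim probe sets, array weights, an intensity trend, other groupings and covariates, and leaving out arrays. Leaving out the 5 arrays high in squamous genes, the comparisons of the sexes among controls and the alternatives for the sex comparisons and the list genes were chosen after seeing the data.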

Additional observations from a re-analysis of the deposited data

Results flagged for a closer look

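In groups of 5 or 6 arrays of a strain and genotype, 6 of 40 gene and group combinations had an array far from its nearest neighbour. The rule flags about 1 in 20 independent groups drawn from a single normal population. That rate does not apply here, since the groups pool the sexes and the combinations share arrays and correlated genes. BALB female CF 3 was the high array for 3 genes: Camp at 6.65, with the other 5 at 4.79 to 5.36, Ngp at 8.05, with the others at 5.003 to 5.92, and S100a9 at 11.41, with the others at 10.28 to 10.60. It was also the array with the highest squamous score. BALB male control 3 was the high array for S100a8, at 9.33 with the others at 7.91 to 8.19, and for S100a9, at 9.97 with the others at 8.39 to 8.71. B6 female CF 3 was high for Lcn2, at 11.29 with the others at 9.45 to 9.78.

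Differences of the CF effect between the sexes were read for the 10 genes alone. Those between strains were read for the 10 genes and the 98 genes of the pathway lists. Between the sexes of B6, limma called Camp (3.30) and Ngp (3.94), female minus male, against 0.682% of all probe sets called higher in females. Most of both differences lay between the female and male controls, so they are not separate from that split. Between strains it called 3 genes, all from the 98 of the pathway lists, a share near the 2.54% of all probe sets called. BALB minus B6, the differences were -0.78 for Cebpb, -1.84 for Cebpd and -0.57 for Mxd1. Mxd1 is a gene of the mature neutrophil list that encodes a MAX partner. Mxd1 itself did not pass in BALB (-0.26, adjusted p = 0.109) or in B6 (0.32, adjusted p = 0.0578). Its strain difference was lost without the 5 arrays high in squamous genes (-0.34, adjusted p = 0.457), with the tissue covariates (-0.20, adjusted p = 0.873) and without B6 male CF 1 (adjusted p = 0.0561), and those of Cebpb and Cebpd were lost with the covariates (adjusted p = 0.278 and 0.31).

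Among 106 genes of the marker lists the strain difference was called for 6, against 2.54% of all probe sets. It was -0.54 for Ccna2 and -0.79 for Rrm2, genes of proliferating cells, -0.61 for the T cell gene Cd8a, and 5.26 for Krt13, 5.90 for Krt4 and 4.70 for Krtdap, genes of squamous epithelium. None of the 6 passed without the 5 arrays (adjusted p from 0.0598 to 0.858) or with the covariates (adjusted p from 0.291 to 0.711), and none without B6 male CF 1 (adjusted p up to 0.1 over all arrays left out).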

How the results depend on the processing

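No called difference of the 10 genes reversed its sign, in 5 main comparisons and 7 of sex. The comparisons are CF in BALB, CF in B6, the difference between these effects, CF lungs of BALB against B6, and control lungs likewise, and counts follow that order. Of the 10 genes 4, 4, 0, 4 and 7 passed, and of all probe sets 2217, 2121, 1142, 8189 and 7016. Leaving out each array in turn gave 2 to 6, 0 to 4, 0, 2 to 6 and 6 to 8 genes, and 1368 to 2851, 852 to 2329, 591 to 1568, 6220 to 8486 and 5898 to 7309 probe sets. With 4 groups and a sex term 2 genes passed in BALB, 1 in B6 and 2 in CF lungs, with 1071 probe sets in B6 and 757 for the difference between effects. With tissue covariates 0 genes passed in BALB, 2 in B6 and 0 in control lungs, with 22 probe sets in BALB, 21 for the difference and 1550 in control lungs. In females alone 1 gene passed in CF lungs and 1 in control lungs, with 534 probe sets in BALB, 367 in B6, 419 for the difference and 3696 in control lungs. In males alone 1 passed in BALB, 0 in B6 and 2 in CF lungs, with 867 probe sets in BALB, 4732 in CF lungs and 4255 in control lungs. Array weights gave 3824 probe sets in BALB and 2043 for the difference, and fitting BALB alone gave 1406. Without the 5 arrays high in squamous genes, chosen after seeing the data, 2 genes and 1040 probe sets passed in BALB, and 5149 probe sets in CF lungs. Fewer arrays entered the fits of 1 sex and of these last, and the cause of the other changes was not tested.

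With the replicate block, added though the numbers share only a name (9 of 23 arrays correlated best with their own number), 4, 3, 0, 4 and 7 genes passed. Lcn2 in B6 lost its call (0.88, adjusted p = 0.0517), and S100a8 gained one in BALB males (1.25, adjusted p = 0.0447) and in B6 females (1.42, adjusted p = 0.0396); no other call of the 10 genes changed. Mmp9 in BALB passed with a filter on dim probe sets, an intensity trend or the mean of its probe sets (adjusted p of 0.0373, 0.0461 and 0.027), as did Camp with that filter (0.0491). Signals near the median of all probe sets limit what can be seen for Mpo, Elane and Mmp8.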
